A study of Mus musculus with 18 samples.

Results

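In all, 10 probe sets reported on 8 genes of the primitive streak and the presomitic mesoderm in mouse embryoid bodies: Msgn1, Tbx6, Mesp1, Mesp2, Ripply2, Eomes, Mixl1 and Lhx1. They were taken as every probe set annotated to exactly 1 gene symbol where that symbol was 1 of these 8, which gave 8 of 18193 genes and 10 of the 34945 probe sets with 1 symbol. Eomes and Lhx1 had 2 probe sets each, and the other genes had 1. The embryoid bodies, floating aggregates in which stem cells differentiate, came from A2lox embryonic stem cells of strain 129P2 that carried a Flag-tagged Msgn1 under doxycycline control. In 3 induced groups, doxycycline at 1 µg/ml was added on day 2 and RNA was taken 12, 24 or 48 h later, and in 3 uninduced groups the same line was cultured for the same times without the drug. Each of the 6 groups had 3 arrays, labelled as biological replicates. The labels do not say whether these were separate cultures, so the p-values measure the spread between these arrays. All groups shared the cassette and a growth phase on mitomycin-treated mouse fibroblasts. No group without the cassette received doxycycline, so the drug and the transgene cannot be told apart, and all arrays came from 1 line.

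The presomitic mesoderm is the tissue behind the last-formed somite that is cut into somites, the blocks from which vertebrae, ribs, skeletal muscle and dermis arise. Its cells leave the primitive streak, where Wnt, Fgf and Nodal signals keep T-box and homeobox factors active, and then switch on Msgn1 and Tbx6, and at the front border Mesp2 and Ripply2. Eomes, Mixl1 and Lhx1 are early streak factors with roles in both mesoderm and definitive endoderm, and Mesp1 marks the first mesoderm to leave the streak, including cardiac progenitors.

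The upstream windows of 3 genes are shown because Msgn1 is a basic helix-loop-helix factor, whose family binds the E-box CANNTG, and because Tbx6 and Eomes belong to the T-box family, which binds motifs of the AGGTGT kind. They are RefSeq sequence of mouse build GRCm38.p6, written 5′ to 3′ on the strand of the gene. Each runs from 250 bases before to 50 bases after an annotated start. For Eomes that start lies a few bases inside the gene, whose span begins at 118478186. Capitals mark CAAATG and AGGTGT on either strand. Mesp1 lies on chr7:79793541-79793840 on the minus strand, Mesp2 on chr7:79810477-79810776 on the plus strand and Eomes on chr9:118477939-118478238 on the plus strand.
Mesp1: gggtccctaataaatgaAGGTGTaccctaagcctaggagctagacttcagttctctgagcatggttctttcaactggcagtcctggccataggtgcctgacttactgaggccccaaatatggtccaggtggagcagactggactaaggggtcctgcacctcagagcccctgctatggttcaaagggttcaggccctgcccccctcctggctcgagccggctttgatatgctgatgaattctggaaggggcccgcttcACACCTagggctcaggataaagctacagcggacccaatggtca
Mesp2: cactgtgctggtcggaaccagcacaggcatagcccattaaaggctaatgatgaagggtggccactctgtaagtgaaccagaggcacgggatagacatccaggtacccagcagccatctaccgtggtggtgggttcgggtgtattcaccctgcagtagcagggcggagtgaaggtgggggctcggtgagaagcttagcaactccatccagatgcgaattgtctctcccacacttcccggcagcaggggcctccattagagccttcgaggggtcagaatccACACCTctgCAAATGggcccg
Eomes: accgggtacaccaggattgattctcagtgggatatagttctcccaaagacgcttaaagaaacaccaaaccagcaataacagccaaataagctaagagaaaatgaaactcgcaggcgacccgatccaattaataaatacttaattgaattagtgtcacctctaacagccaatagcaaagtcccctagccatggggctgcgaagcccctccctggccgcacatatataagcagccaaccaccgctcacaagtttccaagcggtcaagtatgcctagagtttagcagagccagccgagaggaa
The Mesp1 window held AGGTGT at 2 places, 1 of them 233 bases before the start and the other, read as ACACCT, 8 bases after it. The Mesp2 window held CAAATG 39 bases after the start and ACACCT 30 bases after it. The Eomes window held neither motif and no CANNTG. Of the 8 genes 7 had a window, and Mixl1 had none. CAAATG was also in the windows of Msgn1 (38 bases before the start) and Ripply2 (148 bases before), and the windows of Tbx6 and Lhx1 held none of the 3 motifs. CAAATG is itself a CANNTG, a motif of which the Mesp1, Mesp2 and Ripply2 windows held 2 each and the Msgn1 window 1. Over all 32851 windows of this length, 72.3% held a CANNTG, 13.7% CAAATG and 13.7% AGGTGT, on either strand. A match is a run of letters and not a measured binding site. Mesp1 and Mesp2 are neighbours, with 17137 bases between their facing starts.

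Signal is the deposited intensity in linear units. A probe set was called near background in a group where its mean lay under 13.2, the 40th percentile of all values, and 80 probe sets for olfactory or vomeronasal receptors, genes of sensory neurons, had a median of 3.84 and a 95th percentile of 17.8. Ripply2 was near background in all 6 groups. Msgn1 was near background in uninduced bodies at 24 h and 48 h, and Tbx6 in uninduced bodies at 12 h and 24 h. Both passed the filter in uninduced bodies at another time as well as in the induced bodies. The 7 probe sets of Mesp1, Mesp2, Eomes, Mixl1 and Lhx1 were near background in none of the 6 groups. Of the 10 probe sets 9, all but that of Ripply2, reached 13.2 in at least 1 group mean and were tested, among 30749 probe sets in all. Changes are induced minus uninduced on the scale log2(signal + 32), which understates the change of dim probe sets, and a change was called at an adjusted p under 0.05. Signals of different probe sets are not compared with each other.

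Array medians lay between 18.8 and 22.1, the 2% trimmed mean was 150 on every array, and replicate arrays of a group correlated at 0.990 to 0.993 over all probe sets that were not controls. At 24 h the arrays numbered 3 of both conditions stood together: their deviations from their group means correlated at 0.411, against 0.185 for the pair numbered 1 and 0.106 for the pair numbered 2. Of the 9 tested probe sets 8 were called at 24 h with all arrays, and 7 to 8 with any 1 of the 6 arrays of that time left out.

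**Figure D1:**
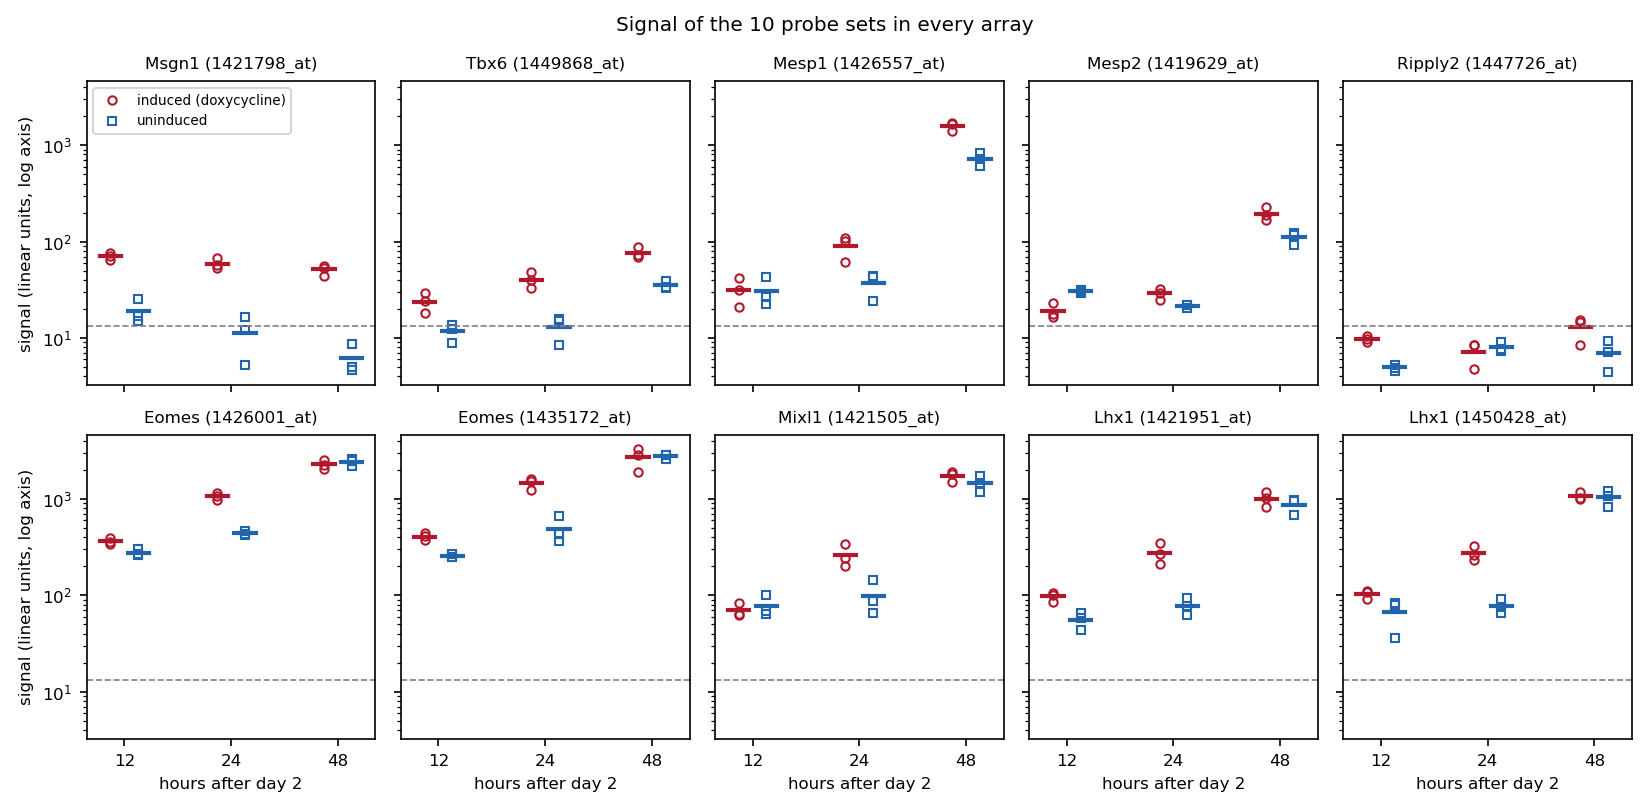
Signal of the 10 probe sets (linear units on a log axis) against hours after day 2, with induced arrays as red circles left of uninduced arrays as blue squares, group means as bars (n = 3) and the dashed line at 13.2. For Msgn1 and Tbx6 the conditions are apart at every time. The Mesp1, Mesp2, Eomes, Mixl1 and Lhx1 probe sets climb steeply to 48 h in both conditions, and Ripply2 stays at or under 15.5.

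Msgn1 (1421798_at) is the gene under doxycycline control in this line. At 12 h its signals were 70.4, 64.7 and 76.8 in induced bodies, against 16.8, 25.2 and 15.0 in uninduced bodies. At 24 h they were 56.7, 52.9 and 67.3 in induced bodies, against 12.0, 16.3 and 5.22 in uninduced bodies. At 48 h they were 53.5, 56.3 and 44.5 in induced bodies, against 5.05, 8.68 and 4.69 in uninduced bodies. All 9 induced arrays lay above all 9 uninduced arrays. Whether the probes detect RNA of the transgene, of the gene on chromosome 12 (11208382 to 11208948 in GRCm38.p6, a span of 567 bases) or of both is not stated. The limma changes were 1.01 ± 0.117 (SE) at 12 h (adjusted p = 2.32e-05), 1.08 ± 0.117 at 24 h (adjusted p = 5.37e-06) and 1.13 ± 0.117 at 48 h (adjusted p = 6.44e-07). The size depended on the offset in the logarithm, running from 0.71 to 1.48 at 24 h over all alternatives, with calls throughout. None of the 3 differences between times of this effect was called, the largest being 0.12 ± 0.165 for 48 h minus 12 h (adjusted p = 0.840). In uninduced bodies Msgn1 was lower at 48 h than at 12 h, with a change of -0.41 ± 0.117 (adjusted p = 0.0112), beside 10.3% of all tested probe sets called lower. The same change in induced bodies was -0.30 ± 0.117, which was not called (adjusted p = 0.0550) but was with 5 of its alternatives (quantile normalization, the 60th percentile filter, the offset of 64, 1 probe set per gene and no trend, adjusted p = 0.0133 to 0.0425). The uninduced call was lost without uninduced 12 h replicate 2, the highest of the 9 uninduced arrays, where the change was -0.33 and the adjusted p 0.0737 (0.00504 to 0.0737 over its 16 alternatives). The uninduced signals compared were dim. Those of 16.8 and 15.0 at 12 h lay under 17.8, the 95th percentile of the receptor probe sets, and the 48 h mean was near background.

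At 12 h, 1 of the 9 tested probe sets was called higher, that of Msgn1, and 0.452% of all tested probe sets were called higher. Msgn1 is the gene under doxycycline control, so its calls here and at 24 h and 48 h are no response of another gene. The counts and medians of the 9 include it. The arrays of the conditions did not overlap for 6 of the 9 with induced higher and for 1 with induced lower, beside 8.46% and 7.85% of all tested probe sets. The 5 uncalled probe sets with induced arrays all higher were those of Tbx6, Eomes and Lhx1, with changes of 0.35 to 0.61, and the smallest adjusted p among them was 0.0982. With the replicate number as a block both Eomes probe sets were called (adjusted p = 0.0363 for 1426001_at and 0.0462 for 1435172_at), and with only the arrays of that time 1435172_at was called (adjusted p = 0.00431). Over their alternatives the adjusted p at 12 h ran from 0.0363 to 0.395 for 1426001_at and from 0.00431 to 0.395 for 1435172_at. At 12 h the block had no clear pairing behind it: deviations of same-numbered arrays correlated at -0.0101, 0.0743 and -0.0845. The median change of the 9 was 0.35, against 0.0043 over all tested probe sets.

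At 24 h, 8 of the 9 probe sets were called higher in induced bodies, those of 6 genes (Msgn1, Tbx6, Mesp1, Eomes, Mixl1 and Lhx1), and 1.51% of all tested probe sets were called higher. Msgn1, the gene under doxycycline control, is 1 of these 6 genes. Mesp2 was the exception, with no call. The 3 induced arrays lay above the 3 uninduced arrays for all 9, beside 8.44% of all tested probe sets. The median change of the 9 was 1.19, against -0.0035 over all tested probe sets.

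At 48 h, 4 of the 9 probe sets were called higher, those of Msgn1, Tbx6, Mesp1 and Mesp2, and 4.30% of all tested probe sets were called higher. These were also the 4 whose arrays did not overlap, beside 12.7% of all tested probe sets. The 5 probe sets of Eomes, Mixl1 and Lhx1 overlapped between conditions. The median change of the 9 was 0.26, against 0.0015 over all tested probe sets.

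**Figure D2:**
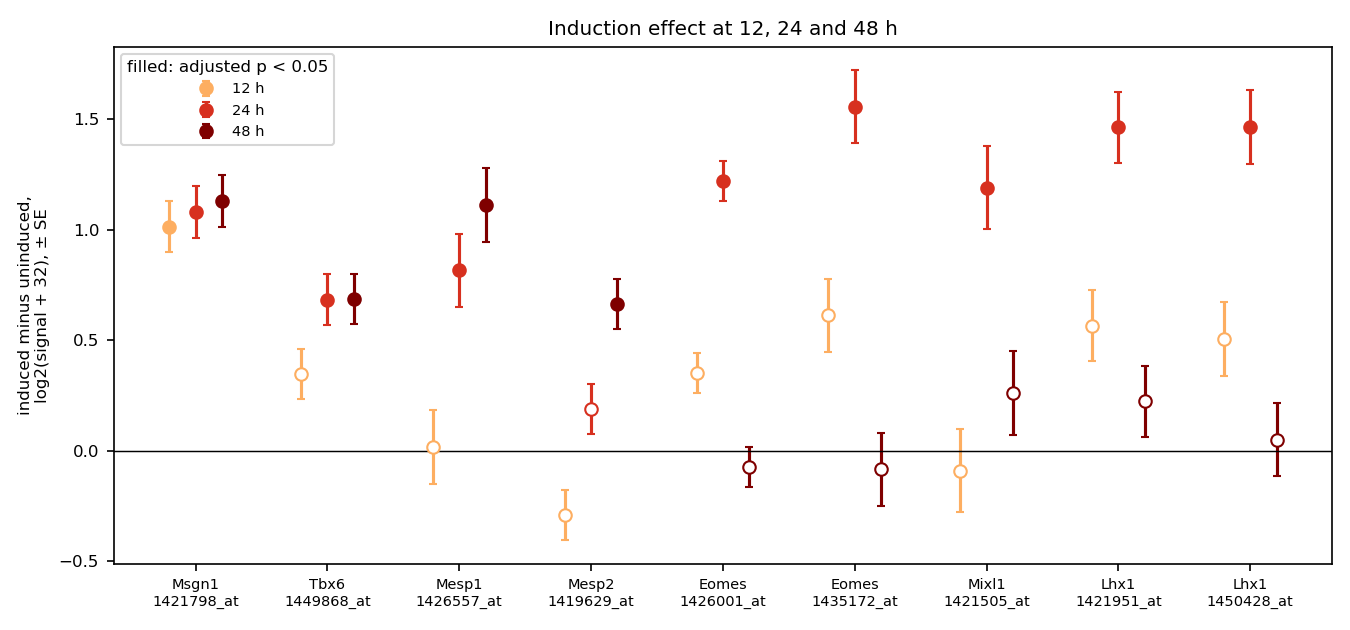
Change in induced minus uninduced bodies on the log2(signal + 32) scale (± SE, n = 3 arrays a group) for the 9 tested probe sets at 12, 24 and 48 h, filled where called. Eomes, Mixl1 and Lhx1 stand at 1.19 to 1.55 at 24 h and at -0.08 to 0.26 at 48 h, while Mesp2 is called at 48 h only.

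Eomes, the T-box factor needed for mesoderm migration and definitive endoderm, was 2.33-fold and 2.94-fold higher on the log2(signal + 32) scale in induced bodies at 24 h by its 2 probe sets and did not differ detectably at 48 h. Probe set 1426001_at gave 339, 395 and 354 in induced bodies at 12 h, against 268, 262 and 301 in uninduced bodies. At 24 h it gave 972, 1076 and 1156 in induced bodies, against 421, 430.3 and 469 in uninduced bodies. At 48 h it gave 2061, 2556 and 2260.2 in induced bodies, against 2438, 2588 and 2201 in uninduced bodies. The conditions were apart at 12 h and at 24 h and interleaved at 48 h. The changes were 0.35 ± 0.0899 at 12 h (limma adjusted p = 0.0982), 1.22 ± 0.0899 at 24 h (adjusted p = 1.80e-08) and -0.07 ± 0.0899 at 48 h (adjusted p = 0.747). The 95% interval at 48 h ran from -0.26 to 0.11.

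The other Eomes probe set, 1435172_at, had more spread between arrays. At 12 h it gave 408, 442 and 370.2 in induced bodies, against 247, 247 and 269.8 in uninduced bodies. At 24 h it gave 1241, 1522 and 1595 in induced bodies, against 427, 369 and 658 in uninduced bodies. At 48 h it gave 1919, 3286 and 2849 in induced bodies, against 2871, 2848 and 2619 in uninduced bodies. Uninduced replicate 3 was the high array of its group at 24 h, and induced replicate 1 the low one at 48 h. The change was 0.61 ± 0.165 at 12 h (limma adjusted p = 0.127), 1.55 ± 0.165 at 24 h (adjusted p = 4.36e-06) and -0.08 ± 0.165 at 48 h (adjusted p = 0.862, 95% interval -0.43 to 0.26).

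The effect on Eomes differed between times. It fell by 1.29 ± 0.127 from 24 h to 48 h in 1426001_at (limma test of the difference, adjusted p = 5.81e-06) and by 1.64 ± 0.233 in 1435172_at (adjusted p = 3.72e-04). It was larger at 24 h than at 12 h by 0.87 ± 0.127 in 1426001_at (adjusted p = 0.00571), while the 0.94 ± 0.233 of 1435172_at was not called (adjusted p = 0.248). Of all tested probe sets 0.0325% were called for a larger effect at 24 h than at 12 h, and 0.842% for a smaller effect at 48 h than at 24 h.

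Lhx1 is a LIM homeobox factor of the streak and the anterior mesendoderm. Both of its probe sets were built from the same accession, so they are not independent measurements. Probe set 1421951_at gave 106, 102 and 85.7 in induced bodies at 12 h, against 43.9, 66.0 and 58.2 in uninduced bodies. At 24 h it gave 209, 265 and 349.6 in induced bodies, against 78.2, 62.3 and 93.5 in uninduced bodies. At 48 h it gave 826, 1166 and 1025 in induced bodies, against 961, 943 and 673 in uninduced bodies. The conditions were apart at 12 h and 24 h and overlapped at 48 h. The changes were 0.57 ± 0.162 at 12 h (limma adjusted p = 0.165), 1.46 ± 0.162 at 24 h (adjusted p = 7.79e-06) and 0.22 ± 0.162 at 48 h (adjusted p = 0.522, 95% interval -0.11 to 0.56).

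Probe set 1450428_at gave nearly the same course. At 12 h it gave 109, 91.4 and 112 in induced bodies, against 35.8, 83.1 and 80.0 in uninduced bodies. At 24 h it gave 231, 261 and 326 in induced bodies, against 66.2, 76.2 and 91.3 in uninduced bodies. At 48 h it gave 1005, 1174 and 1031 in induced bodies, against 1213, 1081 and 830.2 in uninduced bodies. The conditions were again apart at 12 h and 24 h and overlapped at 48 h, and uninduced replicate 1 was the low array at 12 h. The changes were 0.51 at 12 h (limma adjusted p = 0.257; 0.26 without uninduced 12 h replicate 1, adjusted p = 0.656), 1.46 at 24 h (limma adjusted p = 1.13e-05) and 0.05 at 48 h, where the 95% interval was -0.29 to 0.40. The effect on Lhx1 fell by 1.24 ± 0.229 (adjusted p = 0.00423) and by 1.41 ± 0.235 (adjusted p = 0.00184) between 24 h and 48 h in the 2 probe sets.

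Mixl1 is a paired-type homeobox gene of the streak that is needed for definitive endoderm. At 12 h its signals were 83.1, 63.0 and 64.2 in induced bodies, against 68.3, 100.2 and 63.6 in uninduced bodies. At 24 h they were 199.6, 244 and 342 in induced bodies, against 86.2, 65.2 and 143 in uninduced bodies. At 48 h they were 1500.1, 1802 and 1901 in induced bodies, against 1458, 1711 and 1179 in uninduced bodies. The conditions overlapped at 12 h, were apart at 24 h and overlapped again at 48 h, and in both conditions replicate 3 was the highest array at 24 h. The changes were -0.09 ± 0.189 at 12 h (limma adjusted p = 0.931), 1.19 ± 0.189 at 24 h (adjusted p = 7.21e-04) and 0.26 ± 0.189 at 48 h (adjusted p = 0.517, 95% interval -0.13 to 0.66). The difference of effects was 1.28 ± 0.267 for 24 h minus 12 h (adjusted p = 0.114) and -0.93 ± 0.267 for 48 h minus 24 h (adjusted p = 0.0957), and neither was called. With the replicate number as a block both were called (adjusted p = 0.0166 and 0.0175).

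Tbx6, the T-box factor that keeps paraxial mesoderm from taking a neural fate, was higher in induced bodies at 24 h and 48 h. At 12 h its signals were 18.1, 24.0 and 29.1 in induced bodies, against 8.90, 13.8 and 12.5 in uninduced bodies. At 24 h they were 40.1, 48.3 and 32.7 in induced bodies, against 8.48, 14.9 and 15.7 in uninduced bodies. At 48 h they were 69.7, 72.0 and 88.6 in induced bodies, against 33.8, 33.0 and 39.5 in uninduced bodies. The conditions were apart at every time, and the induced arrays at 24 h reached about the level of the uninduced arrays at 48 h, whose range they overlapped. The changes were 0.35 ± 0.115 at 12 h (limma adjusted p = 0.261), 0.68 ± 0.115 at 24 h (adjusted p = 0.00132) and 0.69 ± 0.115 at 48 h (adjusted p = 3.02e-04). No difference of this effect between times was called. Because Tbx6 was dim, the size of the change depended on the offset in the logarithm, and over all alternatives it ran from 0.44 to 0.96 at 24 h, with calls throughout.

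Mesp1 is a basic helix-loop-helix factor of nascent mesoderm. At 12 h its signals were 21.2, 42.0 and 31.2 in induced bodies, against 22.3, 43.2 and 26.7 in uninduced bodies. At 24 h they were 61.5, 109 and 101 in induced bodies, against 43.1, 24.4 and 43.7 in uninduced bodies. At 48 h they were 1653, 1389 and 1695 in induced bodies, against 721, 829 and 601 in uninduced bodies. The conditions were alike in range at 12 h and apart at both later times. The changes were 0.02 ± 0.166 at 12 h (limma adjusted p = 0.989), 0.82 ± 0.166 at 24 h (adjusted p = 0.00793) and 1.11 ± 0.166 at 48 h (adjusted p = 7.88e-05), the last a 2.16-fold difference on this scale. The effect was larger at 48 h than at 12 h by 1.09 ± 0.234 (adjusted p = 0.00856), in a comparison in which 1.58% of all tested probe sets were called in that direction. At 24 h the call was lost without induced replicate 2 (change 0.70, adjusted p = 0.0716) or uninduced replicate 2 (change 0.68, adjusted p = 0.0616), and with only the arrays of that time in the fit (adjusted p = 0.0636). Over its 16 alternatives the adjusted p at 24 h ran from 0.00163 to 0.0716.

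Mesp2, which sets the boundary of the forming somite, was the last of the tested genes to be called. At 12 h its signals were 16.6, 17.6 and 23.3 in induced bodies, against 31.8, 30.8 and 29.0 in uninduced bodies. At 24 h they were 24.7, 32.6 and 29.5 in induced bodies, against 20.4, 22.0 and 21.7 in uninduced bodies. At 48 h they were 188, 166 and 228 in induced bodies, against 122, 117 and 91.7 in uninduced bodies. The induced arrays were all lower at 12 h and all higher at 24 h and 48 h. The changes were -0.29 ± 0.112 at 12 h (limma adjusted p = 0.382), 0.19 ± 0.112 at 24 h (adjusted p = 0.548) and 0.66 ± 0.112 at 48 h (adjusted p = 3.43e-04), the last a 1.59-fold difference on this scale. The effect at 48 h was larger than at 12 h by 0.96 ± 0.159 (adjusted p = 9.07e-04). The induced signals of 16.6 and 17.6 at 12 h lay under 17.8, the 95th percentile of the receptor probe sets.

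Ripply2, which ends Tbx6 and Mesp2 activity at the somite border, had no group mean above 13.2. At 12 h its signals were 9.19, 9.87 and 10.4 in induced bodies, against 4.94, 5.30 and 4.59 in uninduced bodies. At 24 h they were 8.39, 4.72 and 8.40 in induced bodies, against 7.64, 9.02 and 7.32 in uninduced bodies. At 48 h they were 14.6, 15.5 and 8.51 in induced bodies, against 4.49, 9.35 and 7.21 in uninduced bodies. All 18 values lay under the 17.8 of the receptor probe sets, and 16 of them under 13.2. Without a filter, over 45037 probe sets, the changes were 0.18 at 12 h, -0.03 at 24 h and 0.20 at 48 h, and none was called (limma adjusted p = 0.538, 0.961 and 0.178).

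In uninduced bodies, from 12 h to 24 h the 2 Eomes probe sets were called, with changes of 0.61 (limma adjusted p = 0.00130) and 0.81 (adjusted p = 0.0117), beside 1.07% of all tested probe sets called higher. The call of 1435172_at was lost without uninduced 12 h replicate 2 (adjusted p = 0.0582) and with only the arrays of these 2 groups (adjusted p = 0.0531). From 24 h to 48 h 8 of the 9 were called higher, all but Msgn1, beside 9.41% of all tested probe sets. Those changes were 3.54 for Mixl1, 3.44 for Mesp1, 3.01 and 3.28 for Lhx1, 2.37 and 2.48 for Eomes, 1.41 for Mesp2 and 0.59 for Tbx6. From 12 h to 48 h the same 8 were called higher, beside 14.0% of all tested probe sets, and Msgn1 was called lower as given above. Per the labels' protocols, markers of the presomitic lineage begin on day 3 of this differentiation, which is 24 h after the time of induction.

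In induced bodies, from 12 h to 24 h, 7 of the 9 were called higher, all but Msgn1 and Mesp2, beside 5.29% of all tested probe sets. Their changes were 1.50 for Mixl1, 1.48 and 1.75 for Eomes, 1.22 and 1.15 for Lhx1, 0.94 for Mesp1 and 0.38 for Tbx6. The call of Tbx6 (limma adjusted p = 0.0440) was lost when any of 4 of its 6 arrays was left out, induced 12 h replicates 1 and 2 and induced 24 h replicates 1 and 2, with changes of 0.30 to 0.38 (adjusted p = 0.103 to 0.206). It was also lost with quantile normalization (adjusted p = 0.0537), with no filter (0.0821) and with only the arrays compared (0.1003). From 24 h to 48 h 8 were called higher, beside 9.47%, and from 12 h to 48 h 8, beside 17.6% of all tested probe sets. The 48 h minus 12 h changes of the induced bodies were 4.67 for Mesp1, 4.11 for Mixl1 and 2.14 for Mesp2, against 3.58, 3.76 and 1.18 in the uninduced bodies. Those of Eomes were 2.56 (1426001_at) and 2.60 (1435172_at) in induced bodies, against 2.98 and 3.30 in uninduced bodies, and those of Lhx1 were 2.99 (1421951_at) and 3.02 (1450428_at) in induced bodies, against 3.33 and 3.47 in uninduced bodies. For Tbx6 they were 0.96 in induced and 0.63 in uninduced bodies. The difference between conditions, which is the difference of induction effects, was called for Mesp1 and Mesp2 as given above. It was 0.35 ± 0.267 for Mixl1 (limma adjusted p = 0.632) and 0.34 ± 0.162 for Tbx6 (adjusted p = 0.363), and from -0.70 to -0.34 for the Eomes and Lhx1 probe sets, of which -0.43 ± 0.127 for Eomes 1426001_at had the smallest adjusted p (0.0790). That of Eomes 1426001_at was called with the replicate number as a block (adjusted p = 0.0310) and without induced 48 h replicate 2 (adjusted p = 0.0305), and that of Eomes 1435172_at with only the arrays compared (adjusted p = 0.0459) and without induced 48 h replicate 2 (adjusted p = 0.0435).

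The order of the 6 groups followed from these courses. For Mesp1 the highest was induced 48 h, then uninduced 48 h, induced 24 h and uninduced 24 h, and the uninduced 24 h arrays overlapped those of both 12 h groups. For Eomes, Mixl1 and Lhx1 both 48 h groups came first and overlapped each other, and induced 24 h came next, apart from all lower groups. Uninduced 24 h followed for Eomes and Mixl1, and its arrays overlapped those of a 12 h group for Mixl1 and Eomes 1435172_at but not for Eomes 1426001_at. For Lhx1 induced 12 h followed and then uninduced 24 h, and the arrays of these 2 groups overlapped in 1 of its 2 probe sets. For Mesp2 the 48 h groups came first, apart from each other, and the groups at the lower times lay within 16.6 to 32.6. For Tbx6 induced 48 h was highest, and induced 24 h overlapped uninduced 48 h.

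The position of a group on the uninduced course was set as the percent of the uninduced change from 12 h to 48 h on the log2 scale, for the 7 probe sets whose uninduced change was over 1. Induced Eomes at 24 h stood at 61.4% (57.1% to 65.2% over its 3 arrays) in 1426001_at and at 71.8% in 1435172_at, against 20.5% and 24.6% for uninduced bodies at 24 h. Induced Lhx1 stood at 53.5% and 47.8%, against 9.62% and 5.62%. Induced Mixl1 stood at 37.6%, against 5.90%, and induced Mesp1 at 26.7%, against 3.88%. Induced Mesp2 stood at -24.7% at 12 h and at -3.32% at 24 h (-11.9% to 3.94% over its 3 arrays), against -19.4% for uninduced bodies at 24 h. At 48 h the induced bodies stood at 97.5% for both Eomes probe sets, 107% for Mixl1 and 106.7% and 101% for Lhx1, all with arrays on both sides of 100% except Mixl1, whose arrays ran from 102% to 111%. They stood at 131% for Mesp1 and 156% for Mesp2. The induced 24 h arrays of Eomes 1426001_at overlapped those of Lhx1 1421951_at (43.8% to 63.8%), and Eomes was also highest on this scale in uninduced bodies at 24 h. The order of the genes on this scale was not tested.

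**Figure D3:**
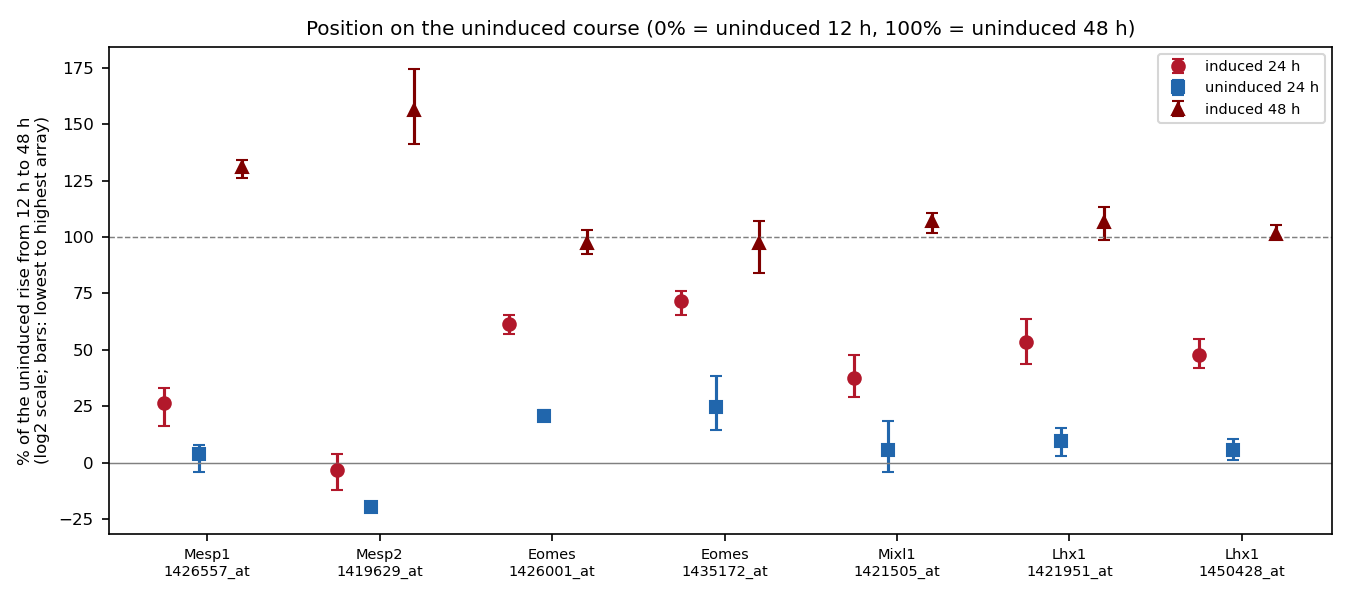
Position on the uninduced course in percent (0% is the uninduced mean at 12 h and 100% that at 48 h, log2 scale) for 7 probe sets, with points for group means and bars from the lowest to the highest of 3 arrays. Induced bodies at 24 h stand between 26.7% and 71.8% for all but Mesp2, and at 48 h Mesp1 at 131% and Mesp2 at 156% stand highest.

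The likeness of 2 probe sets was measured as the root mean square difference of their 6 group means on the log2 scale, after each was centred on its own mean. It grows with the size of the changes, so probe sets with small changes lie close together by construction. By this measure the 2 Lhx1 probe sets were 0.0905 apart and the 2 Eomes probe sets 0.159. Between genes the closest were Eomes 1426001_at and Lhx1 1421951_at at 0.302, followed by the pair of Eomes 1435172_at and Lhx1 1421951_at at 0.319, while Mesp1 was closest to Mixl1 at 0.343. Mesp1 and Mesp2, though neighbours in the genome, were 1.09 apart, and Mesp2 was closest to Tbx6 at 0.516. Msgn1 was farthest from Mesp1, at 1.98.

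Among 13488 other genes the 3 with the most alike pattern to Msgn1 were F2r (0.204), Dll1 (0.218), a Notch ligand of the presomitic mesoderm, and Snx24 (0.219). To Tbx6 they were Zeb2 (0.0460), Limch1 (0.0655) and Twist1 (0.0689), to Mesp1 Asb4 (0.491), Cyp26a1 (0.516) and Frzb (0.561), and to Mesp2 Zc3hav1 (0.109), Gpc6 (0.149) and Alox15 (0.150). Gas1, Prtg and Sp5 were nearest to both Eomes probe sets, at 0.245 to 0.399. Cyp26a1, Sp5 and Frzb were nearest to Mixl1, at 0.346 to 0.370. Sp5 was nearest to both Lhx1 probe sets, at 0.271 and 0.274.

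Beside the members, 27 other genes of the presomitic mesoderm and of segmentation were listed, of which 22 were tested (Ripply1 had no probe set with 1 symbol, and Foxc2, Meox1, Uncx and Papss2 were too dim). This list and those below were chosen with earlier results of these data known, and each gene entered through its brightest probe set. The shares over all tested probe sets are therefore given for scale and are no test of a list. At 12 h 6 of the 22 rose and none fell, beside 0.452% of all tested probe sets called higher. The median change was 0.14, against 0.0043 over all tested probe sets. The largest rises were Dll3 (1.74), Cited1 (1.66), Dll1 (1.56) and Epha4 (1.44). Dll1 and Dll3 are Notch ligands and Epha4 is an Ephrin receptor of the somite border. At 24 h 12 rose and none fell, beside 1.51% of all tested probe sets called higher. The rises were led by Dll3 (2.12), the retinoic acid-degrading enzyme Cyp26a1 (1.71), Cited1 (1.69) and Dact1 (1.44). The median was 0.53, against -0.0035 over all tested probe sets. At 48 h 13 rose and none fell, beside 4.30% of all tested probe sets called higher. The rises were led by Cited1 (1.44), Dll3 (1.43), Notch1 (1.04) and Snai1 (1.02). The median was 0.64, against 0.0015 over all tested probe sets.

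Among other primitive streak genes 18 were tested, and Tbxt had no probe set with 1 symbol here. Snai1 is also in the presomitic list, and Foxa2, Cer1 and Gsc are also among the definitive endoderm markers. At 12 h 1 of the 18 rose, Foxh1 (0.52), a partner of Nodal signalling, beside 0.452% of all tested probe sets called higher. At 24 h 7 rose, beside 1.51% of all tested probe sets called higher. The rises were led by Pdgfra (1.78), Kdr (1.19), Sp5 (0.88) and Evx1 (0.65), and 1 gene fell, Fgf4 (-0.44). Without induced 24 h replicate 2 only 4 of the 18 were called at 24 h, and 5 without induced replicate 3, uninduced replicate 1 or uninduced replicate 2. All genes called in these fits were higher, so the call of Fgf4 was lost in each. It was also lost with only the arrays of that time. At 48 h 7 rose and 7 fell, beside 4.30% of all tested probe sets called higher and 3.48% called lower, with the largest changes in Kdr (2.39), Foxa2 (-2.04), Cer1 (-1.64) and Fgf5 (-1.32). The median change was 0.11 at 12 h, 0.41 at 24 h and -0.05 at 48 h, against 0.0043, -0.0035 and 0.0015 over all tested probe sets. At 48 h Kdr and Pdgfra, receptors of mesoderm, were thus higher in induced bodies and the endoderm genes Foxa2 and Cer1 lower, while Eomes, Mixl1 and Lhx1 overlapped between conditions.

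**Figure D4:**
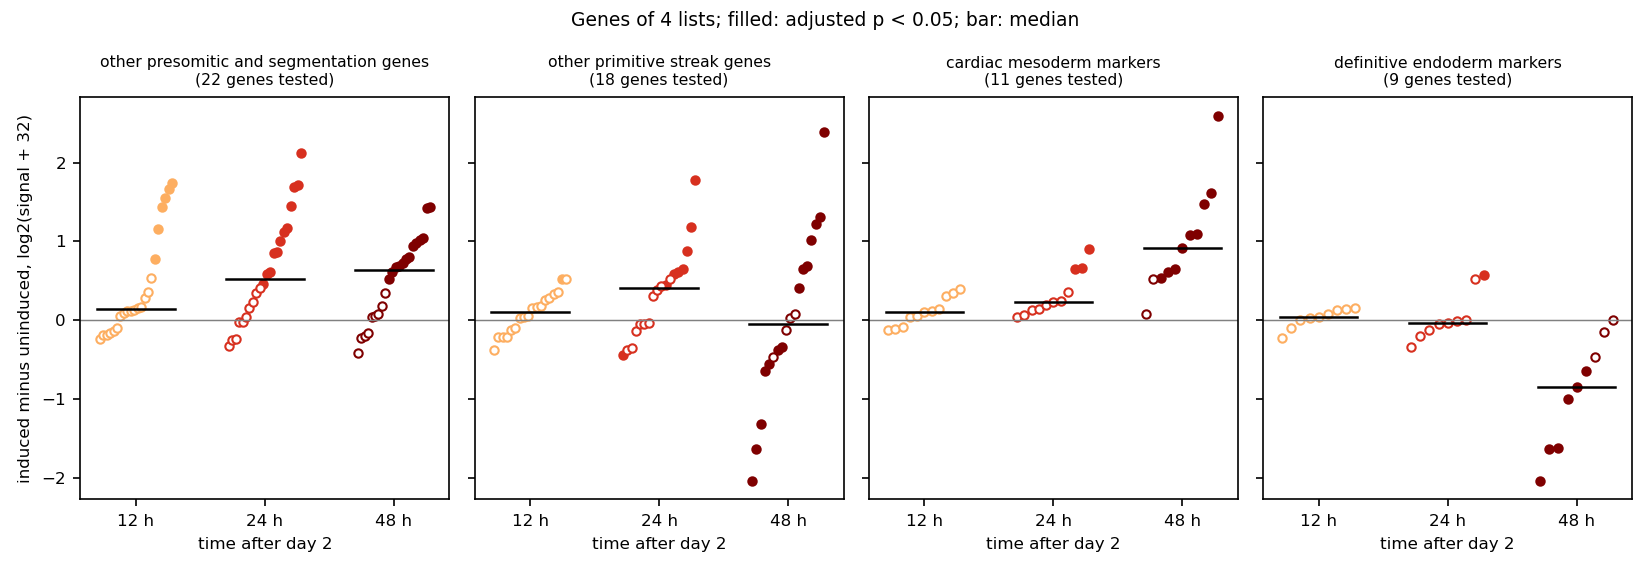
Change in induced minus uninduced bodies on the log2(signal + 32) scale at 12, 24 and 48 h for genes of 4 lists, each point a gene, filled where called, with bars at the medians. The presomitic list has 6, 12 and 13 called rises and no fall, the streak list splits into 7 rises and 7 falls at 48 h, 9 of 11 cardiac genes rise at 48 h and 6 of 9 endoderm genes fall.

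Markers of other cell types also differed between conditions at 48 h, some higher and some lower in induced bodies. At that time 3.48% of all tested probe sets were called lower and 4.30% higher. The shares called higher were 1.51% at 24 h and 0.452% at 12 h. A sum of signals over a list is weighted to its brightest probe sets and does not measure the amount of a cell type. Of 9 tested definitive endoderm markers 6 fell at 48 h (Foxa2, Cer1, Trh, Cldn6, Sox17 and Foxa1). The summed signal of the 9 was then 1989 to 2703 in induced arrays, against 5251 to 6339 in uninduced arrays. At 12 h that sum was already 2674 to 2822 in uninduced arrays. Of 11 cardiac mesoderm markers 9 rose at 48 h, led by Hand2 (2.60) and Tbx20 (1.61). The sum of the 11 at 48 h was 1565 to 2130 in induced arrays, against 655 to 781 in uninduced arrays. Ttr and Tnnt2 were the untested members of those lists. At 24 h 1 endoderm marker (Hhex, 0.58) and 3 cardiac markers had risen, and at 12 h none of either list was called. Of 6 tested early neural markers 2 fell at 48 h (Otx2 and Sox3) and 4 were not called. The sums of the 6 at 48 h were 1312 to 1826 in induced arrays and 2899 to 3177 in uninduced arrays. At 12 h this sum was already 2834 to 3326 in uninduced arrays. Of 12 naive pluripotency markers 5 fell and 2 rose at 48 h, with sums of 3210.2 to 3275 in induced arrays and 3432 to 3706 in uninduced arrays. Of 14 fibroblast markers, listed because of the feeder cells, 4 rose at 48 h, with sums of 1513 to 1685 in induced arrays and 1029 to 1225 in uninduced arrays. Of 9 extraembryonic endoderm markers 3 rose at 48 h (Sox7, Lama1 and Sparc), with sums of 2347 to 2525 in induced arrays and 1669 to 1878 in uninduced arrays. At 24 h 2 naive pluripotency markers fell (Nr0b1 and Nr5a2), and 1 fibroblast marker (Col1a2) and 2 extraembryonic markers (Sox7 and Lama1) rose, while at 12 h Lama1 was the only marker of these 4 lists that was called. The part of these cell types in the values of the members was not tested, and in RNA from whole embryoid bodies fewer cells of a type and less RNA per cell cannot be told apart.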

How the data were processed

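RNA of 18 embryoid body samples was labelled with biotin and hybridised to 1-colour Affymetrix arrays, per the labels' protocols. Each array had a deposited linear signal intensity for each of 45101 probe sets, 64 of them controls. GCOS was used, per the submitters' processing notes, and the algorithm and target were not given in the sources used here. Since all arrays shared a 2% trimmed mean of 150, the deposited intensity had been scaled array by array, and no normalization was added.

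Gene symbols came from the array's annotation, updated through Entrez identifiers for 34741 of the 34945 probe sets with 1 symbol, while 932 had several symbols and 9160 none. Values were transformed to log2(signal + 32), and probe sets with a group mean of at least 13.2 in 1 group or more were kept. limma 3.58.1 (R 4.3.3) fitted 1 mean per group over 18 arrays with an intensity trend, 2-sided p-values were adjusted by the Benjamini-Hochberg method over 30749 probe sets, and calls were made at 0.05. The procedure was tested on simulated data. Groups and replicate numbers were taken from sample titles, and 3 arrays a group limit the precision. At 24 h same-numbered arrays deviated together (correlations of 0.185, 0.106 and 0.411), although the pairs of number 1 with number 2 also correlated at 0.182 and 0.0965. The main fit took no account of the replicate numbers, and a replicate block was used only as an alternative. At 12 h the same-numbered pairs correlated at -0.0101, 0.0743 and -0.0845, and at 48 h at -0.0834, -0.0231 and 0.130.

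All probe sets of the members are named. Of each list, the up to 4 called genes with the largest changes are named, and other called genes where a count needs them. A gene with several probe sets entered a list through the brightest, and the 3 most alike genes were named per member. Members, lists and tests were chosen with earlier results of these data known. Alternatives were offsets of 16 and 64, quantile normalization, no filter, a filter at the 60th percentile, 1 probe set per gene, no trend, a robust trend, only the arrays compared, a replicate block, and each array left out. Figures were drawn with matplotlib 3.10.9.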

Additional observations from a re-analysis of the deposited data

Results flagged for a closer look

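The effect of induction, induced minus uninduced on the log2(signal + 32) scale, differed between times in 7 tests on 4 of the genes, each a limma test of the difference itself with p-values adjusted over all tested probe sets. For Eomes it was 0.866 larger at 24 h than at 12 h in probe set 1426001_at (SE 0.127, adjusted p = 0.00571), where all 3 induced arrays were higher than all 3 uninduced arrays at both times. From 24 h to 48 h the difference of effects was -1.29 (adjusted p = 5.81e-06) for Eomes 1426001_at and -1.64 (adjusted p = 3.72e-04) for Eomes 1435172_at. Over the same times it was -1.24 (adjusted p = 0.00423) for Lhx1 1421951_at and -1.41 (adjusted p = 0.00184) for Lhx1 1450428_at. In all 4 of these the conditions were apart at 24 h and overlapped at 48 h. From 12 h to 48 h the effect grew by 1.09 for Mesp1 (adjusted p = 0.00856), whose arrays overlapped at 12 h and were apart at 48 h. It grew by 0.957 for Mesp2 (adjusted p = 9.07e-04), whose induced arrays were all lower at 12 h and all higher at 48 h. The 12 h change of Mesp2, -0.29, was itself not called (limma adjusted p = 0.382). Its induced 12 h signals of 16.6 and 17.6 lay under 17.8, the 95th percentile of the receptor probe sets. Induced arrays were all lower at 12 h for 7.85% of all tested probe sets.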

How the results depend on the processing

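Of 62 called changes of the members over all 12 comparisons, 599 of 604 values under other settings and 406 of 414 with 1 array left out kept direction and call, 13 lost the call (8 of them with an array left out), and none turned. Of 46 changes not called, 18 values gained a call and 25 changed sign, each on an uncalled change. Under quantile normalization these were Mesp1 at 12 h (-0.0081) and the 48 h minus 24 h difference of effects for Msgn1 (-0.0037) and Tbx6 (-0.0397, and -0.111 with an offset of 16). With 1 array left out, the changes that crossed 0 ran from -0.245 to 0.138 for Eomes 1435172_at and from -0.0990 to 0.166 for Lhx1 1450428_at at 48 h, and from -0.0998 to 0.155 for Mesp1 and -0.179 to 0.0549 for Mixl1 at 12 h. The uninduced 24 h minus 12 h change ran from -0.0528 to 0.329 for Lhx1 1450428_at, -0.0138 to 0.410 for Mixl1 and -0.0074 to 0.114 for Tbx6. The differences of effects ran from -0.0360 to 0.152 (24 h minus 12 h) and -0.0373 to 0.151 (48 h minus 24 h) for Msgn1, and from -0.0746 to 0.0809 (48 h minus 24 h) for Tbx6.

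With the replicate block, 3 probe sets of the members were called at 12 h in place of 1, the added ones being both of Eomes (adjusted p = 0.0363 and 0.0462), and 2 in place of 1 for the 24 h minus 12 h difference of effects, with 21 in place of 13 over all probe sets. Beside these, the calls of Mixl1 given with its values and the 48 h minus 12 h difference of Eomes 1426001_at (-0.43), the block changed no call of a member. Same-numbered arrays deviated together in every pair at 24 h only.

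With 1 probe set per gene, 1 member was called for uninduced 24 h minus 12 h in place of 2, 0 in place of 1 for the 24 h minus 12 h difference of effects, and 2 in place of 4 for the 48 h minus 24 h difference, where fewer probe sets were in the fit. Over all probe sets this gave 4808 in place of 7486 for uninduced and 5950.0 in place of 9657 for induced 48 h minus 12 h. Without the trend 407 in place of 615 were called for uninduced 24 h minus 12 h and 8 in place of 13 for the 24 h minus 12 h difference. With only the arrays compared the counts were 257 in place of 576 at 24 h, 135 in place of 615 for uninduced 24 h minus 12 h, 2 in place of 1 members at 12 h, 1 in place of 2 members for uninduced 24 h minus 12 h, and 4 in place of 8 streak genes at 24 h. The cause was not tested.

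With 1 array left out, all probe sets called ran from 89 to 140.0 at 12 h, 327 to 518 at 24 h (327 without induced 24 h replicate 2), 177 to 1032 for uninduced 24 h minus 12 h, 1359 to 2924 for induced 24 h minus 12 h, 6 to 17 for the 24 h minus 12 h difference of effects and 327 to 590.0 for the 48 h minus 24 h difference. The members ran from 1 to 2, 1 to 3 and 2 to 4 for uninduced 24 h minus 12 h and the differences of 24 h and of 48 h against 12 h. Streak genes called ran from 1 to 2 at 12 h and 4 to 8 at 24 h.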
